A study of Mus musculus with 6 samples.

Results

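The collagen chain genes were the probe sets whose only platform gene symbol was a numbered collagen chain, from Col1a1 to Col27a1 on these arrays. The rule found 82 probe sets of 42 genes, of the 44 collagen chain genes in the RefSeq table; Col28a1 and Col6a6 had no probe set. Array type A held 58 of them, for 36 genes, among 22626 non-control probe sets, and array type B held 24, for 17 genes, among 22511. In all, 11 genes had probe sets on both array types, and 0 of the 82 probe sets were common to them. The tissue was mouse lumbar spinal cord, segments L3 to L5, at postnatal day 27. Pool 1 and pool 2 were each total RNA of 3 cords labelled Egr3-deficient, and the third pool was total RNA of 3 wild-type cords. Every pool was hybridised to array type A and, as a further labelled extract, to array type B. The labels of pool 2 and of the wild-type pool add a remark on acclimatization as a treatment, and those of pool 1 do not. Sex, strain, the Egr3 allele and the cells still present in these cords are not stated in the labels, and the values of single animals cannot be recovered from pooled RNA. The series title names fusimotor neurons, the motor neurons that innervate the fibres inside muscle spindles, and the comparison asks which collagen transcripts differed between cords labelled Egr3-deficient and wild-type cords. Egr3 is a zinc finger transcription factor of the early growth response family.

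Collagens are extracellular proteins whose chains wind around each other into a helix, and they are grouped by what they build. Fibrillar chains form the fibres of meninges, nerve sheaths, tendon and bone, type IV chains form the sheet under blood vessels and around muscle fibres and Schwann cells, and type VI chains form beaded filaments close to that sheet. FACIT chains decorate fibrils, transmembrane chains sit in the cell surface, and the multiplexins lie in the vascular basement membrane. In healthy spinal cord most collagen is made by cells of the meninges and vessels and in nerve roots, while neurons make some of the rarer types.

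The deposited values were linear intensities, with 1 value per probe set and pool. Differences are given on the log2 scale of intensity + 16 after quantile normalization, as pool minus wild type, so that a positive value means more signal in the pool labelled Egr3-deficient. The normalized difference can have the other sign from the deposited readings, where readings lie close together and also among bright probe sets. They were tested with limma (adjusted p threshold 0.05) in the 13576 (A) and 13507 (B) probe sets that reached the filter, at an intensity of about 36.7 on A and 55.9 on B. Of the collagen probe sets, 37 on A and 14 on B reached it, for 32 of the 42 genes. The fit took the spread of the single wild-type pool to equal that of the other 2, and it had 1 residual degree of freedom. The labels do not say whether the pools were prepared separately. Each SE mixes the spread between pools 1 and 2 with a prior taken from all tested probe sets, and rests largely on that prior. The p-values therefore do not measure the spread between animals. Median deposited intensity over all probe sets was 50.3 and 57.9 in pools 1 and 2 against 60.1 in wild type on A, and 76.2 and 83.8 against 91.8 on B. In RNA of whole cord segments, fewer cells of a type and less RNA per cell cannot be told apart.

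Egr3 signal was not lower than wild type in both pools on either array type, with log2 differences of -0.29 and 0.31 in pools 1 and 2 on A and of 1.49 and 0.57 on B, so the pools are called by their labels and each direction below rests on them. The labels do not say which exons of Egr3 were removed, and signal from outside them would check nothing. Of the spinal cord markers, 7 of 9 on A and 7 of 7 on B reached the filter. On A those under it were the cholinergic gene Slc5a7 and the glycinergic gene Slc6a5. Slc6a5 reached it on B, while Slc5a7 was not among the genes measured there. The deposited intensities of the spinal cord markers summed to 23221 and 29627 in pools 1 and 2 against 34766 in wild type on A. On B the sums were 35609 and 26506 against 21910. By normalized difference, 2 were above and 4 below in both pools on A, and 4 were above and 1 below on B. The count on B moved with the normalization. All 7 were above under median centring and without quantile normalization, where 9430 and 7237 of all 22511 probe sets were. On scaling by the probe sets common to both array types, 0 were above and 3 below, where 10.6% and 72.4% of all were. Sums and counts need not point the same way. On B, Nefl read 11605 and 10839 in pools 1 and 2 against 10019 in wild type but had normalized differences of -0.66 and -0.40. The synaptic gene Snap25 was the lowest on A, with a log2 difference of -0.96, and was at 0.51 on B. Skeletal muscle markers moved with the labels on A, where 11 of 11 were above wild type in both pools, with 7 called, and their intensities summed to 4456 and 5704 in pools 1 and 2 against 180 in wild type. Liver markers were highest in pool 2, with sums over 6 genes on A of 388 in pool 1 and 9466 in pool 2 against 126 in wild type. They were above wild type in pool 1 as well. On B, the liver gene Ttr read 584 and 6739 in pools 1 and 2 against 50.9 in wild type. No muscle or liver marker read exactly 0 in any pool, but several wild-type readings on A were far under the filter intensity, such as Tnni2 at 1.33 and Fgb at 0.627. For the control probe sets of 18S ribosomal RNA, the 3' signal divided by the 5' signal came to 2.27 and 1.08 on A against 0.0493, while for the messenger RNA controls on A it was 0.858 and 0.975 against 0.734 (Gapdh) and 1.37 and 1.48 against 1.37 (actin). The part of these differences in the collagen values was not tested.

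No collagen probe set passed the test on either array type, and the collagen probe sets lay more often above wild type than below it. On A, limma called 0 of the 37 tested collagen probe sets higher and 0 lower, where it called 0.0663% of all tested probe sets higher and 0% lower, and at an unadjusted p under 0.05 there were 4 collagen probe sets higher and 0 lower, against 7.93% and 12.7% of all tested probe sets. On B, limma called 0 of 14 higher and 0 lower, against 1.02% and 0.607% of all tested probe sets, with 3 higher, all of Col23a1, and 0 lower at an unadjusted p under 0.05, against 7.4% and 6.83% of all. Before the filter, 30 of the 58 collagen probe sets on A were above wild type in both pools, where 42.7% of all probe sets were, and 13 were below in both, where 35.5% were. On B, 16 of 24 were above in both pools, where 37.8% of all were, and 3 were below, where 35% were, but on scaling by the probe sets common to both array types 5 were above and 13 below, where 10.6% of all were above and 72.4% below. In both pools 1 collagen probe set on A (of Col9a3) and 1 on B (of Col23a1) lay at least 2-fold higher than wild type, where 1.14% of all probe sets on A and 4.47% on B did so. On A 0 and on B 0 lay at least 2-fold below wild type in both pools, against 3.38% and 3.55% of all probe sets. The ratios of both pools share the wild-type pool, so a low or high reading of that pool moves both the same way.

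**Figure D1:**
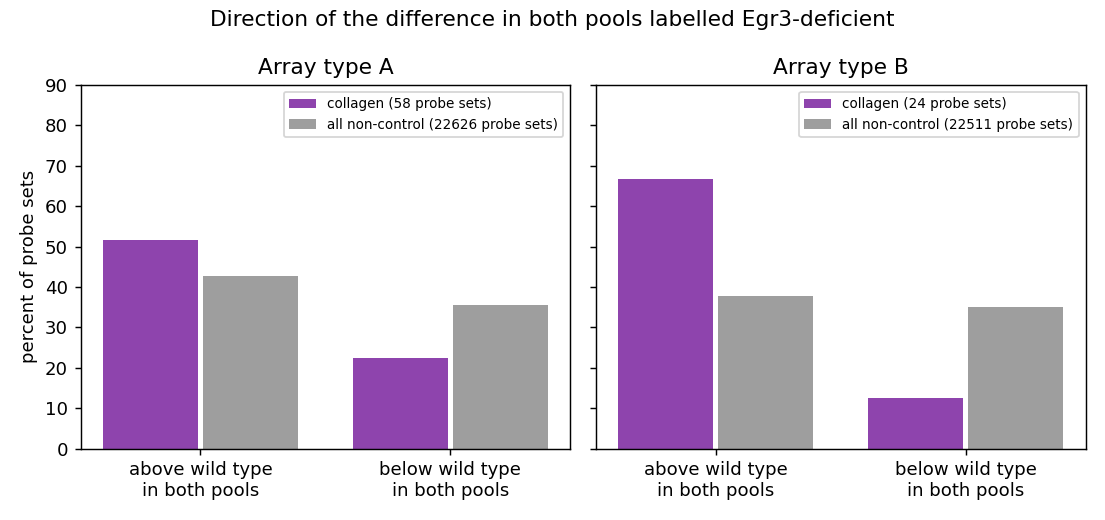
Share of probe sets (percent, vertical axis) above or below the wild-type pool in both pools labelled Egr3-deficient, for collagen probe sets (purple) and all non-control probe sets (grey) on array types A and B. Collagen bars stand at 51.7% above and 22.4% below on A, and at 66.7% and 12.5% on B, where scaling on probe sets common to both array types turns the order round both for collagens (5 above and 13 below of 24) and for all probe sets (10.6% above and 72.4% below).

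The median log2 difference of the collagen probe sets was 0.17 on A, with medians of 0.15 in pool 1 and 0.078 in pool 2, where the median over all probe sets was 0.054. On B the median was 0.29, with 0.19 in pool 1 and 0.24 in pool 2, where that over all probe sets was 0.017, and it turned to -0.37 on scaling by the common probe sets, a scaling under which the median over all probe sets was itself -0.67. Relative to all probe sets, the collagen median lay 0.11 higher on A, with a range of 0.063 to 0.18 over 9 settings, and 0.28 higher on B, with a range of 0.14 to 0.37. Collagen probe sets differed between pools 1 and 2 about as much as others did: the median SD between these pools was 0.22 on A and 0.28 on B, where it was 0.19 and 0.30 over all probe sets. By gene, 17 of the 32 genes that reached the filter had all of their tested probe sets above wild type in both pools, 4 had all of them below (Col11a1, Col16a1, Col19a1 and Col6a4), and 11 were mixed. The 17 include Col4a6 and Col26a1, which reached the filter on A through the pools labelled Egr3-deficient. The share by gene over all genes was not computed. Of all tested probe sets, 6501 of 13576 on A and 5252 of 13507 on B were above in both pools, and 4718 and 4947 were below. Of the tested collagen probe sets, 23 of 37 and 10 of 14 were above, and 7 and 2 below.

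**Figure D2:**
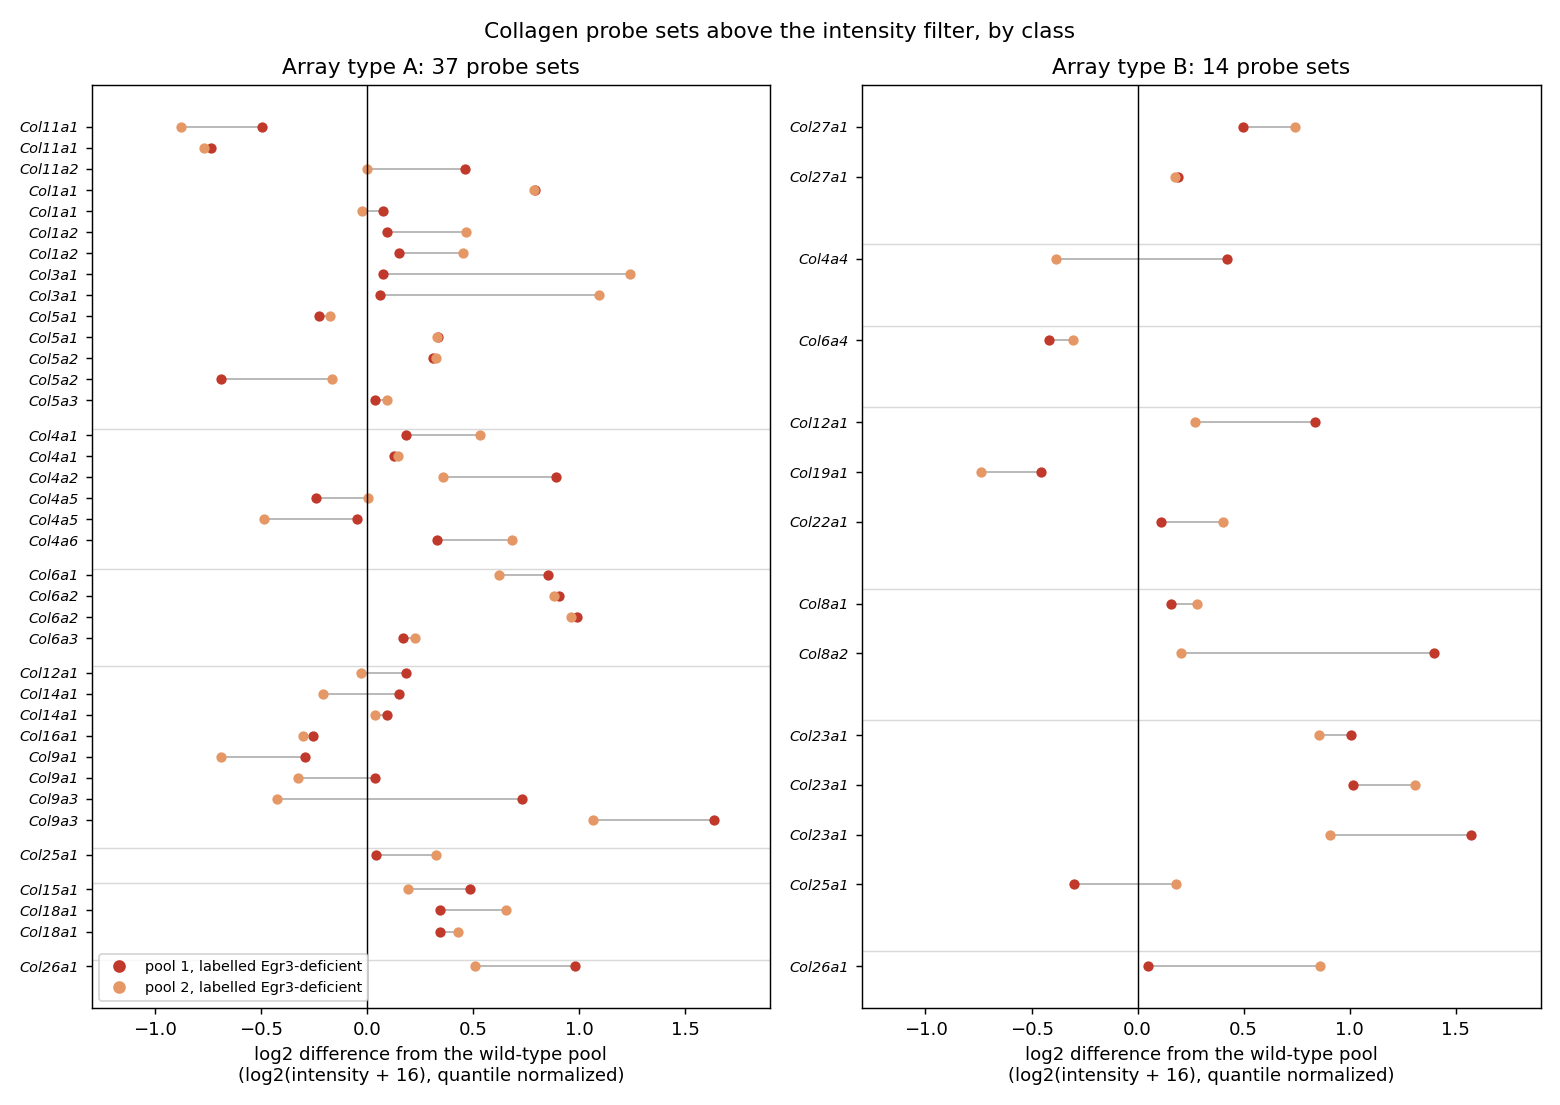
Log2 difference from the wild-type pool (horizontal axis, log2(intensity + 16), quantile normalized) of each collagen probe set that reached the filter, in pool 1 (red) and pool 2 (orange) labelled Egr3-deficient, with grey lines between classes in the order fibrillar, type IV, type VI, FACIT, network, transmembrane, multiplexin and other. All 4 type VI probe sets on A and the 3 Col23a1 probe sets on B lie right of 0 in both pools and both Col11a1 probe sets lie left of it, while on B the positions of Col12a1, Col22a1, Col26a1, Col27a1, Col4a4 and Col8a1 turn to the left on scaling by the common probe sets.

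Type VI collagen was the class farthest above wild type on A. Its 4 probe sets, for the chains Col6a1, Col6a2 and Col6a3 that make up the usual type VI heterotrimer, were all above wild type in both pools, with a median log2 difference of 0.81. Col6a2 read 386 and 373 in pools 1 and 2 against 193 in the wild-type pool with probe set 1452250_a_at. Its other probe set, 1426947_x_at, read 246 and 242 against 131. Both pools labelled Egr3-deficient were above wild type and close to each other. The log2 differences were 0.97 (SE 0.30, limma adjusted p = 0.172) and 0.89 (SE 0.31, limma adjusted p = 0.191), and their unadjusted p-values of 0.0122 and 0.0221 did not survive the adjustment.

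Col6a1, the partner chain encoded beside Col6a2, read 233 and 200 in pools 1 and 2 against 130 in wild type. Its log2 difference was 0.74 (SE 0.32, limma adjusted p = 0.247), with both pools again above wild type. Col6a3, the largest chain of the heterotrimer, read 108 and 120 against 105. Its difference of 0.20 (SE 0.32, limma adjusted p = 0.745) was smaller than its error. Whether the chains of the heterotrimer differ in response was not tested. Across the 11 settings that used both pools, the differences ranged from 0.58 to 0.80 for Col6a1, from 0.71 to 1.04 for Col6a2 over both of its probe sets, and from 0.10 to 0.22 for Col6a3. On B, Col6a4, a chain that can replace Col6a3, lay below wild type in both pools with its tested probe set, at 55.1 and 67.6 against 96.2, a log2 difference of -0.36 (SE 0.69, limma adjusted p = 0.890). A second Col6a4 probe set that did not reach the filter read 114 and 35.9 against 25.3, on the other side of wild type in both pools, and only pool 1 stood well apart. Col6a5 did not reach the filter.

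The promoters of the neighbouring genes Col6a1 and Col6a2 are shown because both were above wild type in both pools. RefSeq sequences of 300 bases, from 250 before to 50 after the start (GRCm38.p6), were found for 33 of the 42 genes, as 36 promoters. Short motifs were looked for on both strands, and their matches are in capitals: CCAAT, the GC box GGGCGG, and GCGNGGGCG, the element that early growth response proteins are known to bind, which can overlap a GC box. Col6a1 lies at chr10:76725995-76726294 on the minus strand and held none of the motifs, and the Col6a2 promoter at chr10:76623355-76623654, also on the minus strand, held 3 GC boxes.
Col6a1: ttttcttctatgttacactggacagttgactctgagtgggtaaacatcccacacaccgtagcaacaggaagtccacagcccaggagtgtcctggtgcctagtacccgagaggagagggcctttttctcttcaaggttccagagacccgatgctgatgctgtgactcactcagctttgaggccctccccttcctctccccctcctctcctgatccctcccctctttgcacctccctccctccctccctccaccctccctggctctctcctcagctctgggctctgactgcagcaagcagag
Col6a2: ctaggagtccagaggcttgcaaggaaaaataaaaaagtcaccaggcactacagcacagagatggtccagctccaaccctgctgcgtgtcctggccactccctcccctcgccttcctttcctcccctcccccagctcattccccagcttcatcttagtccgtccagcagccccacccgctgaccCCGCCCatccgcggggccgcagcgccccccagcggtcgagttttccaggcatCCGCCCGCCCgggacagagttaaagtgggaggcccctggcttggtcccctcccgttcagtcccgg
Over the collagen promoters 61.1% (22 of 36) held a GC box, where 35.7% of all 32851 RefSeq promoters did, and 36.1% (13) held CCAAT, where 37.4% did. The early growth response element was matched in 8.33% (3 of 36), where 5.55% of all were. Such matches describe letters in this window only.

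Type IV collagen, the basement membrane sheet, had no common direction. On A 4 of its 9 probe sets lay above wild type in both pools, 3 lay below, the median was -0.097, and on B 1 of 3 was above. Among the 6 that reached the filter on A, 4 were above and 1 below, with a median of 0.25. The ubiquitous chains of vessel walls, which join as a pair of Col4a1 chains with a Col4a2 chain, were on the higher side. Col4a1 read 482 and 475 in pools 1 and 2 against 436 in wild type with 1452035_at, and 167 and 225 against 157 with 1426348_at. The log2 differences were 0.14 (SE 0.28, limma adjusted p = 0.798) and 0.36 (SE 0.33, limma adjusted p = 0.549), about the size of their errors. Col4a2 read 261 and 177 against 141, with pool 1 farther from wild type than pool 2. Its difference was 0.63 (SE 0.35, limma adjusted p = 0.336).

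Col4a1 and Col4a2 are shown because they are transcribed away from each other from a shared start region, and their promoter windows have 78 bases in common. Col4a1 lies at chr8:11312777-11313076 on the minus strand and Col4a2 at chr8:11312555-11312854 on the plus strand. Both windows hold the same match to the early growth response element, at chr8:11312808-11312816, which overlaps a GC box and appears in the capitals near the end of each sequence.
Col4a1: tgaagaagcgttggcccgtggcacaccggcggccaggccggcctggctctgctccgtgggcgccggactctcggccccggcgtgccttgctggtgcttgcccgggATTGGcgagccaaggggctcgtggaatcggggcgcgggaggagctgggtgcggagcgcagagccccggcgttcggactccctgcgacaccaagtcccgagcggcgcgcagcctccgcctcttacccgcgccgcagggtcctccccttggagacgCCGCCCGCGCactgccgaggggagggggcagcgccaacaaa
Col4a2: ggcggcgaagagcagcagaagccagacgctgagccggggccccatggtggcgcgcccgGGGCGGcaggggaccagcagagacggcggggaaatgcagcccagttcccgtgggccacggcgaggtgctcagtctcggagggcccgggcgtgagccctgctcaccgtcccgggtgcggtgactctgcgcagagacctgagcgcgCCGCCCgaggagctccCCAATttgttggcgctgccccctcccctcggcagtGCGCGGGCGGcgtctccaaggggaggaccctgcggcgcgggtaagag
The third promoter with that element was that of Col8a1, at chr16:57754794-57754802, so the 3 promoters hold 2 distinct sites. The values of Col4a1 and Col4a2 are given above and those of Col8a1 below, and whether the element bears on them was not tested.

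The chains of specialised basement membranes were dimmer. Col4a5 read 84.4 and 64.5 in pools 1 and 2 against 99.0 in wild type, below in both pools with 1425476_at, and 37.9 and 55.5 against 57.5 with 1425475_at (log2 differences -0.27 and -0.12, limma adjusted p = 0.675 and 0.858). Col4a6, its head-to-head neighbour on the X chromosome and a partner of Col4a5 in smooth muscle, read 33.9 and 55.4 against 29.1, a difference of 0.51 (SE 0.34, limma adjusted p = 0.415). The wild-type reading of Col4a6 was under the filter intensity, so it reached the filter through the other 2 pools. Col4a4, of kidney and inner ear membranes, read 73.3 and 39.5 against 63.0 on B, with the pools on opposite sides of wild type, and its mean difference of 0.019 turned negative on 2 of the scalings. Col4a3, its partner in the same membranes, did not reach the filter on either array type.

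Fibrillar chains had 17 probe sets on A, 8 above wild type in both pools, 5 below in both, and a median of 0.23. Type I collagen, the main fibre of connective tissue, is made of the chains Col1a1 and Col1a2. Col1a1 read 582 and 561 in pools 1 and 2 against 323 in wild type with 1423669_at. Its difference was 0.79 (SE 0.28, limma adjusted p = 0.194, unadjusted p = 0.0234), with both pools above wild type and nearly equal. The other Col1a1 probe set, 1455494_at, read 380 and 350 against 363, a difference of 0.024 (limma adjusted p = 0.967), so the 2 probe sets of this gene did not give the same picture. Col1a2 read 1977 and 2365 against 1531 with 1450857_a_at, and 979 and 1194 against 840 with 1423110_at. Both probe sets were above wild type in both pools, with differences of 0.30 (SE 0.22, limma adjusted p = 0.454) and 0.28 (SE 0.27, limma adjusted p = 0.561).

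Col3a1, the chain of type III collagen that runs with type I in vessels and soft tissue, stood out in pool 2. It read 1095 in pool 1 and 2438 in pool 2 against 929 in wild type with 1427883_a_at, and 69.6 and 171 against 76.1 with 1427884_at. The log2 differences were 0.074 in pool 1 and 1.24 in pool 2 with 1427883_a_at and 0.060 and 1.09 with the other, so pool 1 was near wild type with both. The means of 0.66 (SE 0.43, limma adjusted p = 0.397) and 0.58 (SE 0.46, limma adjusted p = 0.484) therefore rest on pool 2, the pool in which liver markers were high.

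Type V collagen sets the width of type I fibrils, and its probe sets pointed both ways. Col5a1 read 121 and 127 in pools 1 and 2 against 103 in wild type with 1434479_at (difference 0.33) but 112 and 123 against 147 with 1416740_at (difference -0.20). Col5a2 likewise read 190 and 199 against 162 with 1422437_at (0.31) but 40.7 and 74.2 against 88.4 with 1450625_at (-0.43). Col5a3 read 104 and 116 against 112, a difference of 0.064 that turned negative without quantile normalization and on scaling by the common probe sets. None of these 5 probe sets passed, with limma adjusted p-values of 0.513 to 0.921, and Col5a1 and Col5a2 have no settled side of wild type here.

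Type XI collagen, the type V relative of cartilage that also occurs in the nervous system, had the lowest chain. Col11a1 read 84.8 and 67.9 in pools 1 and 2 against 140 in wild type with 1418599_at, and 26.7 and 30.9 against 65.3 with 1449154_at. Both pools labelled Egr3-deficient were below wild type with both probe sets, by log2 differences of -0.69 (SE 0.35, limma adjusted p = 0.293) and -0.75 (SE 0.33, limma adjusted p = 0.245). The dimmer probe set reached the filter through the wild-type pool. Its partner Col11a2 read 60.5 and 45.7 against 47.3, a difference of 0.23 that came from pool 1 (0.46) and not pool 2 (-0.0036). Cartilage and bone markers, set beside these chains, had 4 of 11 genes above and 3 below wild type on A, with sums of 310 and 281 in pools 1 and 2 against 307 in wild type. Only 3 of these 11 genes reached the filter. On B 1 of 3 was above and 2 were below. Col2a1, the main cartilage chain, was below the filter at 29.0 and 7.41 against 9.43.

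On B the fibrillar chains were carried by Col27a1, a chain of cartilage. It read 454 and 436 in pools 1 and 2 against 373 in wild type with 1453191_at, and 180 and 227 against 138 with 1429549_at. The differences of 0.18 (limma adjusted p = 0.917) and 0.62 (SE 0.46, limma adjusted p = 0.600) put both pools above wild type, and both turned negative on scaling by the common probe sets.

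**Figure D3:**
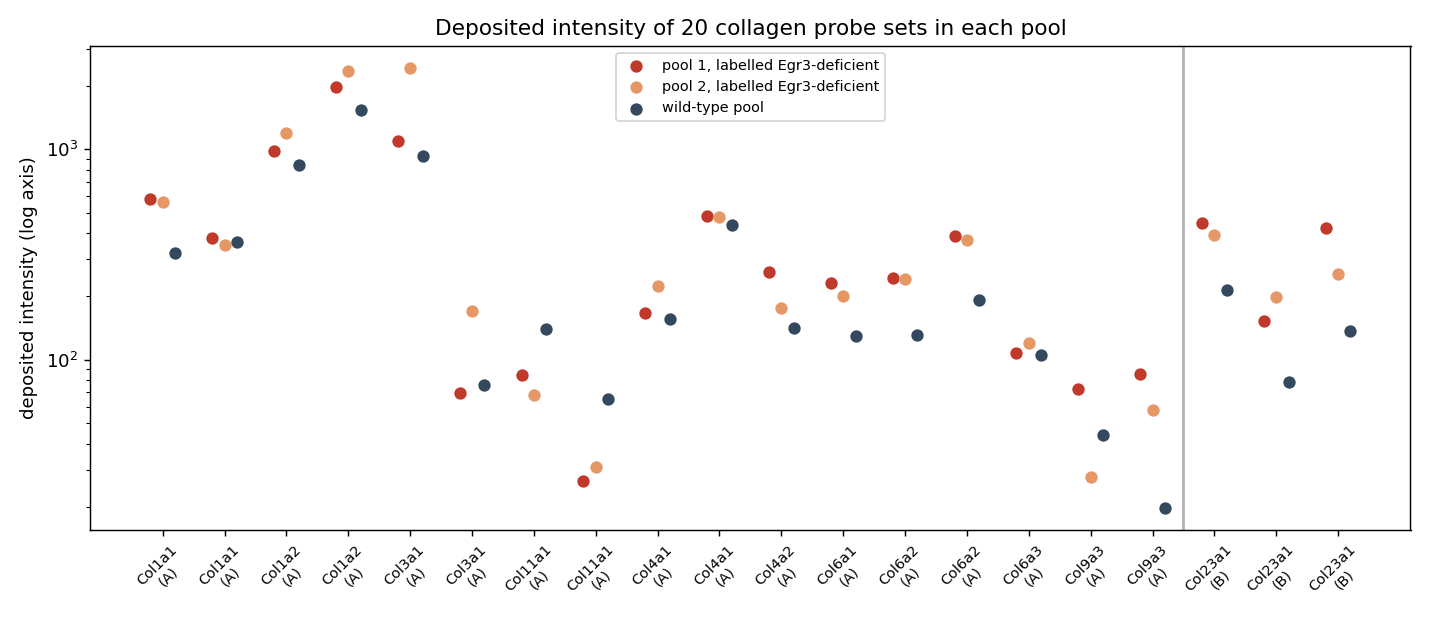
Deposited intensity (vertical log axis) of the tested probe sets of 11 collagen genes in pool 1 (red) and pool 2 (orange) labelled Egr3-deficient and in the wild-type pool (dark), to be read within each column since probe sets differ in brightness for technical reasons. Both Col6a2 columns, Col6a1, the second Col9a3 column, the first Col1a1 column and the 3 Col23a1 columns have the wild-type point lowest, both Col11a1 columns have it highest, and both Col3a1 columns have pool 2 alone high.

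Transmembrane collagens held the highest class median on B, 1.05 over 4 probe sets, with 3 of them above wild type in both pools, 0 below. All 3 were of Col23a1, a surface collagen of epithelia and nervous tissue whose ectodomain can be shed. Col23a1 read 448 and 391 in pools 1 and 2 against 215 in wild type with 1429209_at. It read 153 and 199 against 78.8 with 1429210_at and 424 and 256 against 137 with 1440911_at. All 3 probe sets had both pools above wild type, and the second was the probe set on B at least 2-fold higher in both.

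The Col23a1 differences were 0.93 (SE 0.44, limma adjusted p = 0.320), 1.16 (SE 0.48, limma adjusted p = 0.234) and 1.24 (SE 0.46, limma adjusted p = 0.166). These were the 3 probe sets on B with an unadjusted p under 0.05, at 0.0400, 0.0192 and 0.00919. Over the 11 settings with both pools they stayed positive, from 0.33 to 1.08, 0.43 to 1.32 and 0.60 to 1.35, with the low ends on scaling by the common probe sets. Probe sets of a gene share its transcript and are not replicates. Col25a1, a surface collagen that motor axons are known to need to enter muscle, read 154 and 232 against 209 on B, with pool 1 below and pool 2 above wild type. On A it read 42.0 and 62.6 against 48.7, with a difference of 0.18 (limma adjusted p = 0.775). Col13a1, of the neuromuscular junction, and Col17a1, of skin hemidesmosomes, did not reach the filter.

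FACIT chains pointed both ways on A, with 5 of 17 probe sets above wild type in both pools, 5 below in both, and a median of 0.037 that turned to -0.042 without quantile normalization and to -0.041 on scaling by the common probe sets. Type IX collagen, which coats cartilage and vitreous fibrils, is built of the chains Col9a1, Col9a2 and Col9a3. Col9a3 read 85.3 and 58.0 in pools 1 and 2 against 19.8 in wild type with 1460734_at, the collagen probe set on A at least 2-fold higher in both pools. The difference was 1.35 (SE 0.37, limma adjusted p = 0.161, unadjusted p = 0.00751). Under median centring it was 1.39 and passed (limma adjusted p = 0.00920), but the share of all tested probe sets that passed under that setting is not given here. The wild-type reading was under the filter intensity, so this probe set was tested through the other 2 pools.

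A second Col9a3 probe set, 1460693_a_at, read 72.3 and 27.8 in pools 1 and 2 against 43.8 in wild type, with the pools on opposite sides of it (0.73 and -0.42). The distance of 1.20 between the mean differences of these Col9a3 probe sets was the widest of any collagen gene with several tested probe sets. Probe sets under the filter were left out of this ranking. The partner chain Col9a1 was lower than wild type in both pools with 1421381_a_at, at 44.3 and 35.8 against 68.7 (-0.49, SE 0.35, limma adjusted p = 0.433), and split with 1428571_at, at 64.7 and 53.0 against 72.3. Col9a2 did not reach the filter. The chains of this trimer thus gave no common side.

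Among the other FACIT chains, Col16a1, of skin and fibroblasts, and Col19a1, a chain made by some neurons and in developing muscle, were below wild type in both pools. Col16a1 read 77.3 and 80.9 in pools 1 and 2 against 108 in wild type (-0.28, SE 0.32, limma adjusted p = 0.633). Col19a1 read 91.2 and 78.4 against 150 on B (-0.60, SE 0.53, limma adjusted p = 0.680), and its 2 probe sets on A, under the filter, were also below in both pools. Col12a1, a chain of tendon and muscle fascia, read 455 and 293 against 244 on B (0.55, SE 0.45, limma adjusted p = 0.639), which turned to -0.025 on scaling by the common probe sets, and 39.0 and 37.8 against 39.4 on A. Col14a1, a relative with similar sites, read 97.4 and 78.5 against 96.7 (-0.031, limma adjusted p = 0.965) and 64.3 and 68.9 against 69.0 (0.063, limma adjusted p = 0.923, negative without quantile normalization and on scaling by the common probe sets). Col22a1, of the muscle-tendon junction, read 191 and 247 against 191 on B (0.26, limma adjusted p = 0.876), and was negative on scaling by the common probe sets.

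The short network chains of type VIII, made in vessel walls and the eye, were above wild type in both pools on B, with a median of 0.51 that turned to -0.19 on scaling by the common probe sets. Col8a1 read 155 and 178 in pools 1 and 2 against 152 in wild type (0.22, SE 0.46, limma adjusted p = 0.904), turning to -0.46 on scaling by the common probe sets. Col8a2 read 260 in pool 1 and 107 in pool 2 against 100 in wild type. The Col8a2 difference of 0.80 (SE 0.49, limma adjusted p = 0.492) came from pool 1 at 1.40, with pool 2 at 0.21. Col10a1, the chain of growth plate cartilage, did not reach the filter.

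The multiplexins and Col26a1 had their tested probe sets above wild type in both pools. Col18a1, the source of endostatin in vascular basement membranes, read 117 and 132 in pools 1 and 2 against 98.6 in wild type with 1426955_at, and 43.2 and 66.2 against 37.3 with 1418237_s_at. Its differences were 0.39 (SE 0.32, limma adjusted p = 0.506) and 0.50 (SE 0.34, limma adjusted p = 0.417). The dimmer Col18a1 probe set reached the filter through the pools labelled Egr3-deficient. Col15a1, its relative in muscle and vessel membranes, read 118 and 99.2 against 89.2, a difference of 0.34 (SE 0.34, limma adjusted p = 0.573). The 3 multiplexin probe sets thus had differences of similar size, each close to its error. Col26a1, known from gonad development, read 54.3 and 40.8 against 24.1 on A (0.74, SE 0.36, limma adjusted p = 0.279), where it reached the filter through the pools labelled Egr3-deficient. On B Col26a1 read 41.9 and 95.2 against 52.2, a difference of 0.46 (SE 0.80) that turned to -0.34 on scaling by the common probe sets. There it reached the filter through pool 2 alone, and pool 1 was near wild type at 0.052.

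In 10 genes no probe set reached the filter: Col10a1, Col13a1, Col17a1, Col20a1, Col24a1, Col2a1, Col4a3, Col6a5, Col7a1 and Col9a2. Of the collagen probe sets under the filter, 7 of 21 on A lay above wild type in both pools, 6 lay below, and 6 of 10 on B were above and 1 below. Of the 18 genes with several tested probe sets, 14 had them on the same side of wild type by mean difference and 4 did not (Col14a1, Col25a1, Col5a1 and Col5a2). The median distance between probe sets of a gene was 0.26, as large as many of the differences from wild type, and it was 0.76 for Col1a1 and 0.081 for Col6a2.

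Genes that make, hold and remove collagen were read from lists, with the brightest probe set of each gene, and limma called none of them on either array type. Of the collagen processing genes, 14 of 21 were above wild type in both pools on A and 5 below, with a median of 0.28, and 5 of 7 were above and 0 below on B, where the median of 0.38 turned to -0.31 on scaling by the common probe sets. Serpinh1, the collagen chaperone of the endoplasmic reticulum, read 551 and 347 in pools 1 and 2 against 181 in wild type (1.25, SE 0.35, limma adjusted p = 0.162). Pcolce, which speeds the trimming of procollagen ends, read 610 and 546 against 283 (0.99, SE 0.28, limma adjusted p = 0.165), and P4hb, a subunit of the prolyl hydroxylase, read 1130 and 983 against 659 (0.61, SE 0.25, limma adjusted p = 0.225). On the other side were Lox, which crosslinks fibrils, at 76.1 and 104 against 162 (-0.67, limma adjusted p = 0.289), and Plod2, a lysyl hydroxylase, at 51.2 and 54.1 against 96.7 (-0.61, limma adjusted p = 0.314). Enzymes and chaperones of collagen synthesis thus lay on both sides of wild type. At an unadjusted p under 0.05, 3 processing genes were higher and 0 lower on A, where 7.93% of all tested probe sets were higher and 12.7% lower.

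Collagen receptors had no common side, with 3 of 7 above wild type in both pools, 2 below on A (median -0.069) and 3 of 5 above and 2 below on B (median 0.24, turning to -0.47 on scaling by the common probe sets). Itgb1, the integrin subunit shared by the collagen-binding integrins, read 97.6 and 162 in pools 1 and 2 against 322 in wild type (-1.20, SE 0.36, limma adjusted p = 0.171). Itga10, an integrin subunit that pairs with it, read 236 and 174 against 125 on B (0.75, SE 0.46, limma adjusted p = 0.494). Of the breakdown genes, 6 of 10 lay above wild type in both pools on A, with 1 below (median 0.35), and on B the only one measured, Mmp14, was below in both (-0.41), although it was above in both on A (0.35). Mmp2, a gelatinase, read 267 and 291 against 154 (0.86, SE 0.31, limma adjusted p = 0.198), and Timp3, an inhibitor bound to matrix, read 222 and 237 against 381 (-0.67, SE 0.30, limma adjusted p = 0.258). Of the proteins that bind fibrils, 8 of 12 were above and 0 below on A, with Fbln1, fibulin 1, at 184 and 180 against 114 (0.69, SE 0.32, limma adjusted p = 0.264), and 2 of 5 were above and 2 below on B. The laminins, nidogens and proteoglycans that join type IV collagen had 5 of 11 above and 3 below on A, with a median of 0.051, and 1 of 4 above and 1 below on B.

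Markers of cells that could hold collagen transcripts were read beside the collagens. Meningeal fibroblast markers had 4 of 10 genes above wild type in both pools on A, 2 below, and sums of 1852 and 2525 in pools 1 and 2 against 2148 in wild type; without Dcn, the brightest in wild type, the sums were 1492 and 1566 against 1393. Endothelial markers had 6 of 8 above and 2 below, with median log2 differences of 0.16 and 0.14. Their sums were 794 and 965 against 958, or 682 and 732 against 644 without Slco1a4, the brightest in wild type. Pericyte and vascular smooth muscle markers had 3 of 8 above and 2 below, with sums of 927 and 982 against 1045. Without Rgs5, the brightest in wild type, these were 760 and 623 against 566. In each of these 3 lists on A the pool 1 sum was below wild type and moved above it without that 1 gene. In pool 2 only the pericyte sum changed side. The gene left out was picked by its wild-type signal, which favours sums above wild type without it, so no side is read from them. Of the 8 Schwann cell and nerve root markers, 5 had a probe set on either array type. On A these were Egr2, Ncmap and Sox10, with 3 of 3 above wild type in both pools and sums of 1296 and 1335 against 785. The sums came mostly from Sox10, at 778 and 492 against 306, and Ncmap, at 445 and 664 against 410. Which cells in the cord gave these signals was not tested. On B 1 of 2 was above and 1 below (Pmp2, -0.88), and the sums of 3033 and 2618 against 3156 were below wild type in both pools. Beside type VI collagen, the sums of the Schwann cell and the skeletal muscle markers were higher than wild type in both pools on A, and the liver markers were higher in both and most of all in pool 2, beside Col3a1. Their part in the collagen values was not tested.

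**Figure D4:**
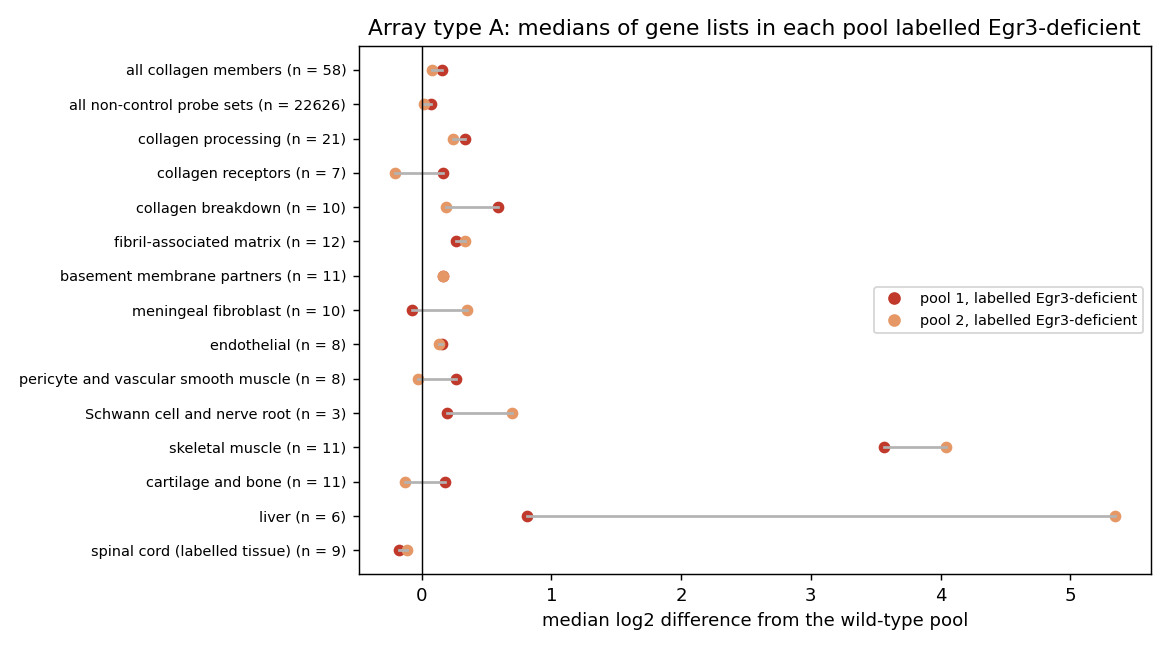
Median log2 difference from the wild-type pool on array type A (horizontal axis) in pool 1 (red) and pool 2 (orange) labelled Egr3-deficient, for all collagen probe sets, all non-control probe sets and each gene list, with the number of probe sets or genes in brackets. The collagen medians of 0.15 and 0.078 lie near those of all probe sets, skeletal muscle markers lie far to the right in both pools, liver markers do so in pool 2, and the small median of cartilage and bone markers changes sign under median centring.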

How the data were processed

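RNA of 3 pools of mouse lumbar spinal cord was measured on 2 array types, 6 arrays in all. Each probe set had 1 deposited intensity on a linear scale per array, and the mean of each array without the outer 2% at both ends was 149.97 to 149.99, so the authors had scaled the arrays. No source used here names the summarising program, detection calls were not used, and the number of arrays limits the precision. Groups came from the sample descriptions, and replicates are pools.

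Gene symbols came from the platform annotation, updated through the RefSeq gene table, which changed 0 collagen symbols. Each array type was analysed alone, leaving out 64 control probe sets on each: log2(intensity + 16), quantile normalization over the 3 arrays, a filter at the 40th percentile of mean log2 value, then limma 3.58.1 in R 4.3.3 (lmFit, eBayes with an intensity trend) and Benjamini-Hochberg adjustment over all tested probe sets at 0.05. Prior degrees of freedom (6.54 on A, 52.3 on B) outweighed the 1 residual degree of freedom, so SEs rest largely on the prior. The fit was tested on simulated data. Counts of probe sets above, below or at least 2-fold from wild type in both pools used all non-control probe sets. Summaries were made in Python 3.11.15.

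All collagen genes could be named. Values were given for probe sets past the threshold or at least 2-fold apart in both pools, for the brightest tested probe set of each class and for partner chains, and in other lists for up to 3 genes in each direction with the largest smaller difference of both pools. Values of the other tested collagens were added so that every tested gene is covered. The members and lists were chosen with earlier results of these data known. Alternatives covered the normalization, pseudocount, filter, variance model, adjustment, replicates and averaging of probe sets of a gene; those for the above and below counts were added after seeing the data.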

Additional observations from a re-analysis of the deposited data

How the results depend on the processing

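No paired analysis was possible because the labels state no pairing and the wild type has 1 pool. Leaving out a pool sets 1 pool against 1, with no test. Limma called 0 collagen probe sets under every planned setting with both pools except median centring, where 1 was called higher on A (Col9a3). The share of all tested probe sets called under median centring is not given here, so that call has no background to be set beside. Medians on A were 0.10 without quantile normalization, 0.22 under median centring, 0.10 on scaling by the common probe sets, 0.26 and 0.094 with pseudocounts of 1 and 64, 0.23 with probe sets averaged by gene, and 0.078 to 0.15 without a pool. Medians on B were 0.21, 0.37, -0.37, 0.38 and 0.19 under the same settings up to the pseudocounts and 0.19 to 0.24 without a pool. For the 2-fold counts that follow, and for counts by gene or without a pool, the share of all probe sets under the same setting is not given. Nothing about collagens is read from those counts. Without a pool, only the remaining pool had to lie on the side counted. Counts at least 2-fold higher were 4 and 0 on A and 3 and 0 on B with pseudocounts of 1 and 64, 0 on A by gene, 0 on B without quantile normalization and on common scaling, and 1 to 4 on A and 2 to 7 on B without a pool. At least 2-fold lower were 1 on B on common scaling, and 0 to 1 on A without a pool. Counts above wild type on B were 5 on common scaling. Counts below on A were 7 of 36 genes by gene and 15 to 26 of 58 probe sets without a pool. These are not like the main count of 13 of 58 probe sets below in both pools. On B, of 24 probe sets, 7 were below without quantile normalization, where 9285 of all 22511 were, and 13 on common scaling, where 72.4% were. Without a pool 4 to 7 were below on B. Among single probe sets 24 values changed sign. Without quantile normalization these were Col12a1 on A (-0.026), Col14a1 (-0.042), Col5a3 (-0.030) and Col4a4 (-0.17), and under median centring Col25a1 on B (0.040). On common scaling they were Col12a1 on A (-0.026) and B (-0.025), Col14a1 (-0.041), Col5a3 (-0.030) and, on B, Col22a1 (-0.40), Col26a1 (-0.34), Col27a1 (-0.068 and -0.33), Col4a4 (-0.74) and Col8a1 (-0.46). With a pool left out, values ranged from -0.0036 to 0.46 for Col11a2, -0.030 to 0.18 for Col12a1 on A, -0.025 to 0.073 for Col1a1, -0.30 to 0.18 for Col25a1 on B, -0.38 to 0.42 for Col4a4, -0.24 to 0.0019 for Col4a5, -0.42 to 0.73 for Col9a3, -0.21 to 0.15 for Col14a1 and -0.33 to 0.038 for Col9a1. The cause of these changes was not tested, apart from common scaling moving all probe sets on B.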
